A study of Callithrix jacchus with 8 samples.

Results

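Of the 32338 gene identifiers (IDs) counted in 4 embryonic stem (ES) cell lines of the common marmoset monkey, 307 shifted in the same direction between an earlier and a later passage of every line. They were chosen from their own values. CPM values (read counts scaled to 1000000 gene counts per library) were taken from the 2 libraries of each line, and the log2 shift was calculated as log2 of later over earlier CPM, after adding a pseudocount of 1 to both. An ID was taken if its mean was under 500 CPM over the 8 libraries and at least 5 CPM in each line, and if its shift was at least 0.5 upwards in all 4 lines or at least 0.5 downwards in all 4. Of 10667 IDs within these limits of level, 181 were higher and 126 were lower at the later passage. The shifts of the members are therefore a description of how they were chosen, and are given without a test.

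The lines DPZcjESC1-4 were each derived from a single preimplantation embryo, so that each line stands for 1 embryo. The embryos of DPZcjESC1 and DPZcjESC2 were non-compacted morulae, that of DPZcjESC3 a compacted morula, and that of DPZcjESC4 an expanded blastocyst. The study lists the same donor female for DPZcjESC1 and DPZcjESC2, so that these lines are not from unrelated embryos. DPZcjESC3 and DPZcjESC4 each came from another donor. All lines were grown on mouse embryonic feeder cells (MEFs) at 5% O2 in a medium with serum replacement, and the labels name no treatment or genetic change. According to the study, DPZcjESC1 and DPZcjESC2 carry additional chromosomes, while the karyotypes of DPZcjESC3 and DPZcjESC4 were normal. RNA was sequenced at passages 46 and 51 of DPZcjESC1, 36 and 37 of DPZcjESC2, 37 and 41 of DPZcjESC3, and 30 and 33 of DPZcjESC4. "Earlier" and "later" are thus relative to each line. The labels name no batch of culture, RNA extraction or sequencing, and a difference in handling between the earlier and the later samples cannot be told apart from the passage.

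ES cells are held in the pluripotent state by a network of transcription factors around POU5F1, SOX2 and NANOG, and by the balance of FGF, NODAL/activin, BMP and WNT signals. Primate ES cells can leave this state towards amnion, surface ectoderm or trophoblast, which share the transcription factors TFAP2A, TFAP2C, GATA2 and GATA3. In bulk RNA, as used here, fewer cells of a type and less RNA per cell cannot be told apart.

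Between 10615123 and 12885444 reads per library were counted on genes, so that 3 counts corresponded to 0.233 to 0.283 CPM. All 307 members shifted by more than 2 standard errors of counting in each line, an error that covers the sampling of reads only. Of all 10667 IDs within the level limits, 2111 did so, whatever their direction. The choice of members largely fixes their count, which is a description. Some further measures of the libraries moved in the same direction in all lines. The share of unique hits that lay outside annotated genes was 29.4 to 32.9% and fell by 0.0563 to 1.08 percentage points at the later passage. The 100 most counted IDs held 11.4 to 13.2% of gene counts and fell by 0.0228 to 0.794 percentage points. In contrast, gene counts per library and the number of IDs with a count moved in different directions between lines. The number of IDs with a count changed by 113, -494, 666 and -47 in DPZcjESC1, DPZcjESC2, DPZcjESC3 and DPZcjESC4. The part of these measures in the shifts was not tested. The median log2 shift of all IDs within the level limits was 0.16, -0.0095, 0.037 and 0.012 in the lines 1, 2, 3 and 4. With TMM scaling, which sets libraries equal over the bulk of genes, the median of DPZcjESC1 became -0.052, and shifts are to be read relative to these medians. Symbols were available for 135 of the 181 and 92 of the 126 members.

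The members that were higher at the later passage included many genes of the pluripotency network. Of a list of 10 pluripotency markers, 6 were found with a symbol, and 2 of these 6, NANOG and UTF1, were members. All 6 were detected in every library, POU5F1 at 311 to 480.03 CPM, as the label of ES cells requires. Of a second list of 25 further pluripotency genes, 13 were found within the level limits. Of these 13, 7 were members with higher levels later (PRDM14, KLF4, KHDC3L, NR5A2, DPPA2, PHC1 and USP44), none was a member with lower levels, and 11 shifted upwards in all 4 lines. Over all 10667 IDs, 1.70% were members with higher levels and 18.5% shifted upwards in all 4 lines. The median over the 13 genes of the mean log2 shift was 1.28, beside 0.044 over all IDs. The gene lists here and below were chosen with earlier results of these data known, so that shares over them are a description.

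PRDM14 (ENSCJAG00000008052), a transcriptional regulator of pluripotency and of germ cell specification, was at 17.6, 27.5, 16.7 and 22.4 CPM in the earlier libraries of DPZcjESC1, 2, 3 and 4, an order kept for all values below, and at 173, 128, 192 and 96.0 CPM in the later libraries. Every later library was above every earlier one, and the log2 shift was between 2.05 and 3.44. KLF4 (ENSCJAG00000016955), a zinc finger factor used in reprogramming, was at 12.3, 12.1, 15.9 and 25.5 CPM earlier and at 108, 61.1, 86.1 and 76.6 CPM later. The homeobox factor NANOG (ENSCJAG00000018999) was at 34.9, 39.6, 41.0 and 56.1 CPM in the earlier and 148, 151, 164 and 112 CPM in the later libraries. Neither KLF4 nor NANOG overlapped between the earlier and the later group. In all of the 3 genes the shift was smallest in DPZcjESC4. NANOG has near-identical copies in primate genomes, and since only reads with a unique hit were counted, its level can be understated.

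KHDC3L, known from the maternal protein complex of the oocyte, was at 6.60, 14.9, 28.6 and 26.6 CPM earlier and 94.1, 37.0, 106 and 44.2 CPM later, with shifts between 0.71 and 3.65. DPPA2, a chromatin factor of the early embryo, was at 6.21, 7.58, 8.80 and 8.54 CPM earlier and 29.4, 21.1, 26.9 and 19.6 CPM later. The nuclear receptor gene NR5A2 was at 5.67, 7.74, 7.90 and 11.6 CPM in the earlier libraries, and at 34.4, 22.1, 31.2 and 25.7 CPM in the later ones. In PHC1, a subunit of the polycomb repressive complex, the levels were 161, 234, 219 and 253 CPM earlier and 594, 441, 617 and 458 CPM later. The groups were separate in these 4 genes. UTF1, a chromatin-bound factor of undifferentiated cells, was at 8.30, 19.3, 35.5 and 18.1 CPM earlier and 41.5, 30.8, 67.9 and 50.9 CPM later, so that the later library of DPZcjESC2 was below the earlier library of DPZcjESC3.

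Not all pluripotency markers were members. POU5F1 shifted by 0.15, 0.24, 0.05 and 0.31 in the 4 lines, LIN28A by 0.37, -0.10, 0.047 and 0.19 and SALL4 by 0.37, -0.07, -0.29 and -0.0034. SOX2 missed the rule in 1 line, with shifts of 0.85, 1.04, 0.43 and 1.60. Among the further genes, GDF3, DPPA5, OTX2 and ZIC2 shifted upwards in every line and fell short of 0.5 in 1 line each. DNMT3B, a de novo DNA methyltransferase, was left out by the upper limit of level alone. It was at 533, 1053, 1259 and 884 CPM in the earlier libraries and at 2521, 2119, 2491 and 1766 CPM in the later ones. In all, 7 IDs met every other part of the rule, 4 with higher and 3 with lower levels. Among them was HELLS, a chromatin remodeller that DNA methylation depends on, with 302, 361, 492 and 386 CPM earlier and 760, 606, 697 and 592 CPM later. KLF5 was the only one of the 13 further genes to be lower later in every line, with shifts of -2.76, -0.47, -1.24 and -0.0019.

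**Figure D1:**
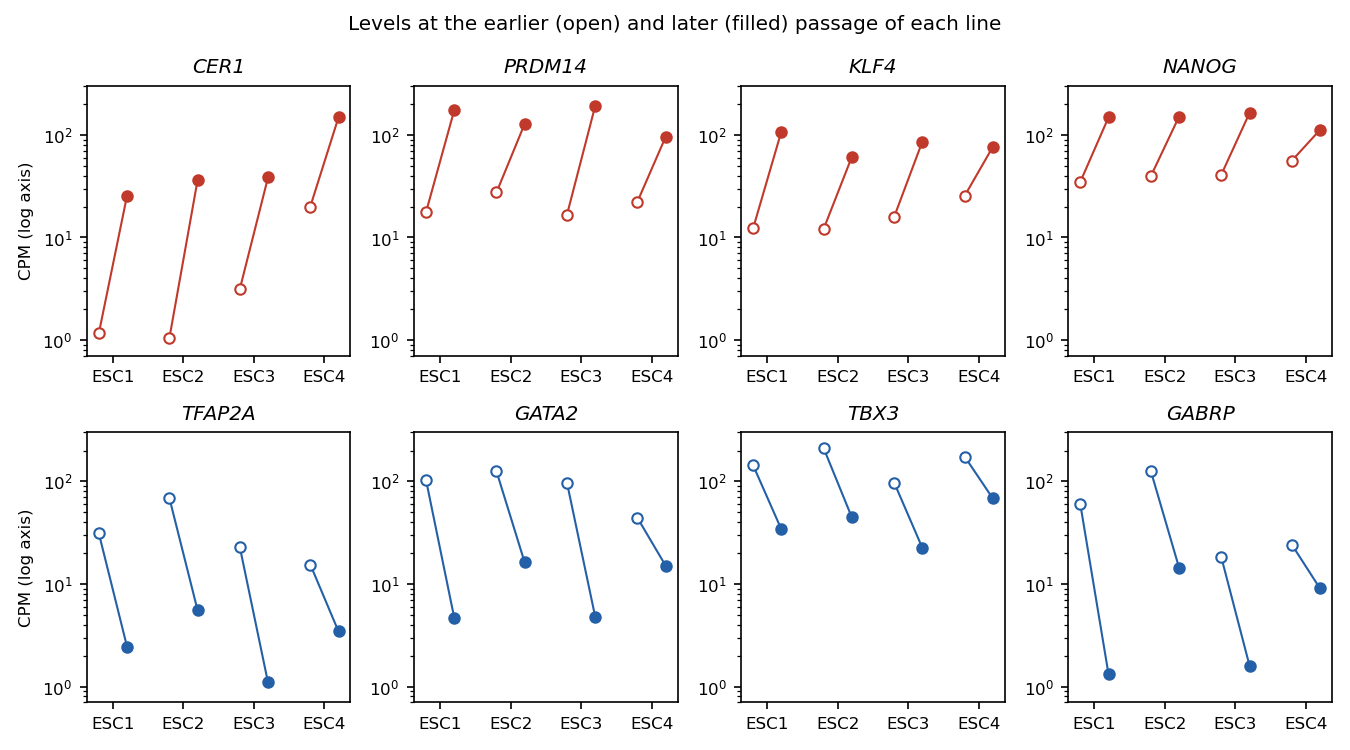
CPM (log axis) of 4 members that were higher and 4 that were lower at the later passage, in the 2 libraries of DPZcjESC1-4 (open, earlier; filled, later; 1 library per point). In each of the 8 genes every later library lies on the same side of every earlier one, and CER1 is highest in DPZcjESC4 at both passages.

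The member with the largest smallest shift was CER1 (ENSCJAG00000012238), which encodes a secreted antagonist of NODAL and BMP. CER1 was at 1.16, 1.04, 3.14 and 20.0 CPM in the earlier libraries and at 25.5, 36.0, 38.5 and 149 CPM in the later ones, with shifts of 3.62, 4.18, 3.25 and 2.83. The earlier libraries of DPZcjESC1 and DPZcjESC2 held 15 and 13 counts of it. Of the 7 genes of a NODAL and BMP list within the level limits, CER1 was the only member with higher levels. BAMBI, a pseudoreceptor that inhibits TGF-beta and BMP signals, was the only member with lower levels and was at 140.2, 178, 114 and 165 CPM earlier and 58.1, 76.0, 63.5 and 103 CPM later. NODAL itself shifted in different directions, by -1.25, 2.19, 1.24 and -0.13.

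Genes of the WNT pathway were found on both sides. Of 9 listed genes within the level limits, 3 were members with higher levels and 1 with lower levels. The WNT receptor gene FZD5 was at 37.2, 62.8, 72.6 and 74.9 CPM earlier and 186, 244, 265 and 173 CPM later. WIF1, which encodes a secreted WNT inhibitor, was at 3.65, 4.79, 9.43 and 2.87 CPM earlier and 26.6, 15.7, 24.3 and 11.5 CPM later. DACT1, whose product binds Dishevelled, was at 3.03, 5.19, 10.7 and 11.5 CPM earlier and 21.4, 29.8, 42.7 and 26.8 CPM later. These 3 genes did not overlap between the groups. PTK7, a receptor of planar cell polarity, was lower later, at 245, 279, 344 and 369 CPM in the earlier and 87.4, 151, 118 and 195 CPM in the later libraries. WLS, which carries WNT ligands to the cell surface, was kept out by the upper limit of level and was at 698, 734, 1123 and 781 CPM earlier and at 132, 204, 143 and 289 CPM later. AXIN2, a common target of the pathway, shifted by 0.076, 0.41, -0.058 and -0.61 and changed sign between lines.

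A second large group of members with higher levels encodes parts of motile cilia and flagella. In these organelles a microtubule scaffold, the axoneme, is bent by dynein arms, which are held in place by docking and ruler proteins. Of the gene families named for motile cilia (DNAH, DNAI, ODAD, DRC, RSPH, CFAP, SPMIP and DNAAF), 30 genes lay within the level limits. Of these, 13 were members with higher levels and 0 with lower levels, and 21 shifted upwards in all 4 lines. The median of their mean shifts was 0.68. These families too were chosen with earlier results of these data known. The summed level of all 79 family genes with a symbol was 914, 1300.4, 1044 and 964 CPM in the earlier libraries and 1671, 1632, 1516 and 1382 CPM in the later ones.

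Dynein heavy chains of the outer arm were among them. DNAH5 (ENSCJAG00000009326) was at 30.7, 82.4, 63.1 and 58.3 CPM earlier and 136, 142, 121 and 109 CPM later, and DNAH9 (ENSCJAG00000004802) at 9.62, 14.1, 12.3 and 10.8 CPM earlier and 28.0, 23.5, 22.7 and 18.2 CPM later. DNAH11 belonged to the members too, with shifts of 1.66, 0.62, 0.75 and 0.61. ODAD1, of the docking complex of the outer arm, was at 5.20, 19.0, 12.03 and 12.1 CPM earlier and 31.0, 31.3, 34.9 and 27.8 CPM later. Each of these 4 genes had separate groups. Among the proteins that line the microtubules, CFAP45 was at 21.2, 48.9, 45.9 and 32.8 CPM earlier and 143, 108, 133 and 99.2 CPM later. CFAP276 (ENSCJAG00000002720) was at 2.25, 10.5, 4.85 and 6.09 CPM in the earlier libraries and at 33.4, 31.7, 26.8 and 18.02 CPM in the later ones, and SPMIP6 (ENSCJAG00000008549), named for sperm microtubules, at 2.17, 6.54, 2.24 and 3.64 CPM and 33.2, 18.2, 17.8 and 14.5 CPM. Of the 13, the 2 last named had the largest smallest shifts.

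Genes of the central pair of microtubules, which were not in these families, were members as well. HYDIN was at 28.3, 64.2, 29.4 and 26.6 CPM earlier and 149.7, 137, 90.6 and 73.7 CPM later, and SPAG6 at 42.5, 72.9, 47.2 and 65.1 CPM earlier and 222, 205, 159 and 122 CPM later. The ruler protein gene CCDC40 was at 8.07, 19.3, 10.5 and 14.8 CPM earlier and 27.3, 33.5, 30.7 and 25.3 CPM later. In none of these 3 genes did the groups overlap. Further members with a known place in the axoneme or in ciliated cells were RIBC2, ARMC2 and BBOF1. These genes outside the families were picked after their values were known, and no count over them is given.

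Genes of intraflagellar transport and of the BBSome, which primary cilia need as well, shifted less. Of 20 such genes within the level limits, 1, BBS9, was a member, at 15.0, 15.4, 11.8 and 10.7 CPM earlier and 23.7, 28.4, 18.7 and 17.1 CPM later, although 13 of the 20 shifted upwards in all lines. Their median mean shift was 0.34. Of a list of 12 regulators of multiciliated cells, 10 were found and 5 lay within the level limits. DEUP1, which is needed for the multiplication of centrioles, was at 8.23, 15.6, 8.44 and 11.7 CPM earlier and 28.0, 35.7, 25.1 and 19.5 CPM later. The transcription factor gene MYB was at 1.16, 3.43, 5.21 and 4.82 CPM earlier and 18.1, 6.77, 14.7 and 9.05 CPM later. RFX2 and RFX3, factors that drive genes of cilia, shifted upwards in every line but under 0.5 in 1 line each. The shifts were 2.67, 0.73, 1.05 and 0.40 for RFX2, and 2.33, 0.58, 0.30 and 0.98 for RFX3. RFX1, the remaining gene of this list within the level limits, shifted by 0.060, -0.52, -0.28 and -0.26. MCIDAS and CCNO, which act at the start of the multiciliated programme, were both under 1 CPM on average. MCIDAS had shifts of both signs, -0.38, 0.24, -0.53 and 0.11, and those of CCNO were negative, -0.30, -0.31, -1.85 and -0.23.

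**Figure D2:**
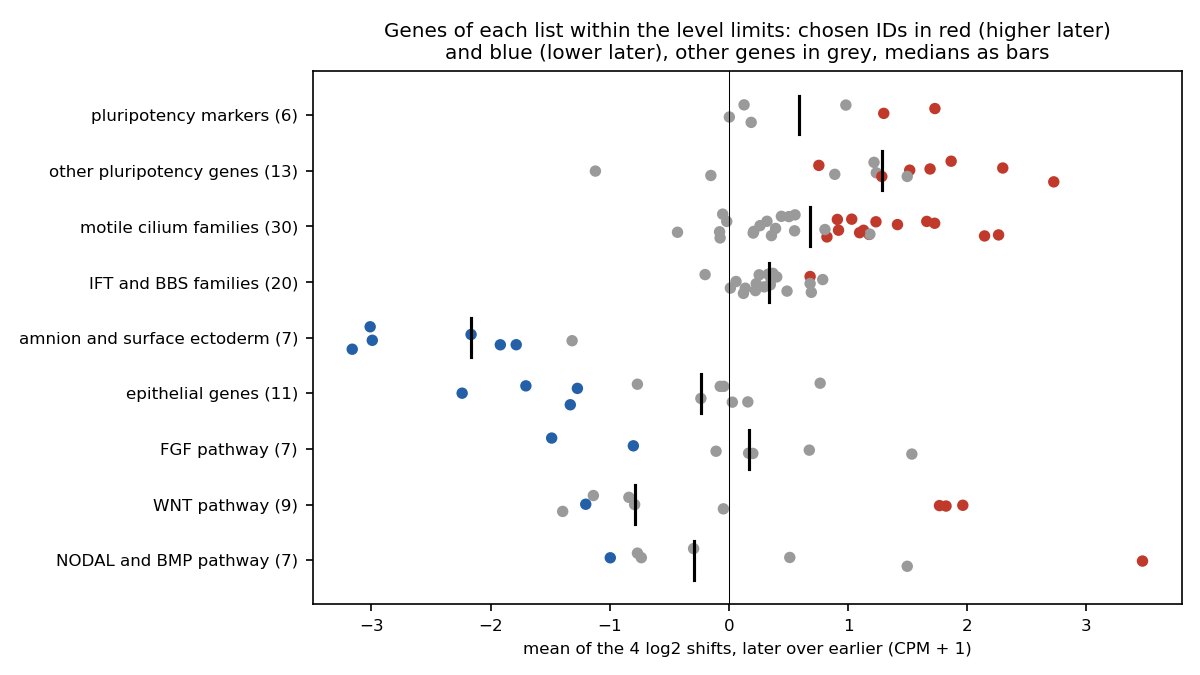
Mean of the 4 log2 shifts (later over earlier, CPM + 1) of each gene within the level limits in 9 lists (number of genes in parentheses); points are genes, red and blue mark members with higher and lower levels at the later passage, grey marks genes that were not members, and bars mark medians. The amnion and surface ectoderm genes lie below 0, and most of the further pluripotency genes and of the motile cilium families lie above 0.

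Of the other members with higher levels, the rule for naming took those with the largest smallest shift. RASGRF2, an exchange factor for RAS proteins, was at 7.76, 39.3, 26.4 and 31.2 CPM earlier and 95.2, 125, 143 and 98.4 CPM later. The cation channel gene TRPC4 (ENSCJAG00000017909) was at 11.3, 22.1, 17.9 and 18.5 CPM earlier and 104, 68.3, 65.5 and 68.5 CPM later. LRRTM4, a synaptic membrane protein gene, was at 0.621, 5.03, 1.62 and 3.55 CPM in the earlier and 25.2, 20.0, 23.2 and 16.0 CPM in the later libraries. In these 3 genes every later library was above every earlier one. The protease inhibitor gene A2ML1 was at 0.854, 2.87, 2.78 and 4.40 CPM earlier and 32.2, 10.8, 33.9 and 14.5 CPM later, and ZBBX at 1.32, 4.71, 1.53 and 2.03 CPM earlier and 20.3, 18.5, 12.6 and 8.17 CPM later. The remaining 2 of the 12 carry no symbol. ENSCJAG00000004766 shifted by 2.71, 1.69, 1.53 and 1.47 and ENSCJAG00000015242 by 3.22, 1.56, 2.26 and 1.35.

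The members that were lower at the later passage included transcription factors and surface genes of amnion, surface ectoderm and trophoblast. Of a list of 20 genes of these tissues, 12 were found and 7 lay within the level limits. Of these 7, 6 were members with lower levels (TFAP2A, TFAP2C, GATA2, TBX3, GABRP and KRT7), and the 7th, EPAS1, was lower later in every line, with shifts of -0.32, -2.98, -0.80 and -1.16. Over all IDs within the limits, 1.18% were members with lower levels and 11.6% shifted downwards in every line. The list was chosen with earlier results of these data known, and the shares are a description. Counting also genes under the limit of 5 CPM, all 11 genes of the list with a mean of at least 1 CPM shifted downwards in all 4 lines. CDX2, WNT6, VTCN1 and MSX1 were among them. The summed level of the list was 577, 892, 499 and 469 CPM in the earlier libraries and 97.1, 166, 87.3 and 193 CPM in the later ones. With a mean of at least 1 CPM as the only limit, 12 of 15 further pluripotency genes and 37 of 64 motile cilium genes shifted upwards in every line. In each of these lists 1 gene shifted downwards in every line. Of 14 epithelial genes, 8 shifted downwards and 1 upwards in every line. No share over all IDs was computed at 1 CPM.

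TFAP2A (ENSCJAG00000021312) was at 31.2, 69.2, 22.9 and 15.5 CPM in the earlier libraries of DPZcjESC1, 2, 3 and 4 and at 2.45, 5.58, 1.09 and 3.44 CPM in the later ones. GATA2 (ENSCJAG00000011732), a zinc finger factor, was at 104, 126, 97.0 and 44.1 CPM earlier and 4.71, 16.2, 4.80 and 15.1 CPM later. TBX3 (ENSCJAG00000009716), a T-box factor, was at 143, 211, 97.5 and 175 CPM earlier and 34.1, 44.6, 22.5 and 68.2 CPM later. All earlier libraries lay above all later ones in these 3 genes. GABRP (ENSCJAG00000019417), a subunit of the GABA-A receptor, was at 59.8, 126, 18.2 and 24.2 CPM earlier and 1.32, 14.5, 1.60 and 9.05 CPM later, and TFAP2C at 130.4, 125, 126 and 37.9 CPM earlier and 11.6, 30.9, 23.7 and 19.5 CPM later. The groups were separate in both genes, and the shift was smallest in DPZcjESC4. KRT7, a keratin of simple epithelia, was at 21.0, 58.7, 72.3 and 21.2 CPM earlier and 2.83, 29.7, 7.66 and 13.9 CPM later, and here the later library of DPZcjESC2 was above the earlier libraries of DPZcjESC1 and DPZcjESC4.

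Of the marker lists for other cell types, the trophoblast list was the only one that held members. It shares TFAP2C and KRT7 with the list above, and its sum was 168, 190.3, 203 and 80.8 CPM earlier and 14.98, 64.8, 33.01 and 40.7 CPM later. The sum of 6 fibroblast markers, which feeder-like cells would carry, was 4137, 2279.7, 2119.7 and 5077 CPM earlier and 6506, 1179, 5141 and 3203 CPM later. It was higher later in DPZcjESC1 and DPZcjESC3 and lower in DPZcjESC2 and DPZcjESC4, and its part in the members' shifts was not tested. None of the 6 was at 0 in any library. The mesoderm list had no common direction either, with log2 shifts of its sum of -1.45, 1.44, 1.22 and -1.07, and neither had the endoderm list, with -0.93, -0.46, 0.74 and -0.30. The neuroectoderm sum was lower later in each line, with shifts of -1.78, -0.075, -0.19 and -0.47. Of the 3 genes in this sum, TUBB3 alone shifted downwards in each line, while NES and PAX6 had shifts of both signs. No gene of these 4 lists was a member.

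Epithelial genes were lower in part. Of 11 listed genes within the level limits, 4 were members with lower levels and 5 shifted downwards in every line. The grainyhead factor gene GRHL3 was at 58.1, 44.0, 22.4 and 12.3 CPM earlier and 4.99, 6.68, 4.29 and 5.85 CPM later, and its relative GRHL2 at 158, 152, 139 and 64.7 CPM and 27.1, 98.6, 50.0 and 45.1 CPM. CLDN4, of the tight junctions, was at 278, 164, 137 and 56.1 CPM earlier and 21.7, 66.9, 51.8 and 38.6 CPM later. PPL, of the desmosomes, was at 97.0, 118, 89.0 and 58.3 CPM earlier and 32.0, 35.5, 38.3 and 31.7 CPM later. GRHL2 and CLDN4 overlapped between the groups, since their earlier level in DPZcjESC4 was below a later level of another line. In contrast, CLDN7 shifted by 0.054, 0.023, -0.20 and -0.051 and ESRP1 by -0.25, 0.20, -0.17 and 0.34, and CLDN3 was higher later, by 1.56, 0.26, 0.51 and 0.72.

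In the FGF pathway, 2 of 7 listed genes were members, both with lower levels. FGF2, a growth factor used to maintain human ES cells, was at 15.4, 10.6, 8.26 and 11.8 CPM earlier and 1.79, 4.21, 2.36 and 6.49 CPM later, and its receptor gene FGFR3 at 99.8, 134, 125 and 93.5 CPM and 49.5, 74.9, 84.5 and 52.9 CPM. Both had separate groups. The targets ETV4 and ETV5 shifted by -0.88, 1.73, 1.86 and -0.014 and by 0.45, 1.78, 3.11 and 0.80, without a member among them.

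The remaining members with lower levels that were named by rule came from several classes. SALL3, a zinc finger factor, was at 28.0, 51.5, 63.6 and 36.6 CPM earlier and 1.51, 12.9, 3.96 and 10.6 CPM later. EDNRB, the endothelin receptor B, was at 14.7, 90.1, 31.6 and 27.0 CPM earlier and 3.86, 8.88, 2.53 and 6.33 CPM later. The transporter genes ATP6V0A4 and SLCO4C1 shifted by -1.57, -2.07, -1.54 and -1.22 and by -1.64, -2.63, -2.96 and -1.20. In these 4 genes the groups did not overlap. The 4 IDs without a symbol were ENSCJAG00000019348, ENSCJAG00000007740, ENSCJAG00000013806 and ENSCJAG00000019138, whose smallest shifts were -2.02, -1.62, -1.19 and -1.17. ENSCJAG00000019348 was at 18.5, 47.4, 30.3 and 9.89 CPM earlier and 0.471, 4.85, 1.18 and 1.68 CPM later.

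The size of the shift differed between the lines. Over the 181 members with higher levels the median log2 shift was 1.90, 0.87, 1.32 and 0.82 in the lines DPZcjESC1, 2, 3 and 4. Over the 126 members with lower levels the medians were -1.50, -1.08, -1.29 and -0.77. DPZcjESC1, with the widest gap between passages, had the largest shift in 141 of the 181 and 65 of the 126 members, and DPZcjESC4 the smallest in 87 and 78. DPZcjESC2, with the narrowest gap, had larger median shifts than DPZcjESC4 in both directions. The gap cannot be told apart from the line, and its part in the size of the shift was not tested. Over all IDs within the level limits, the shift was largest in DPZcjESC1 for 52.1% and smallest in DPZcjESC4 for 38.8%, beside 77.9% and 48.1% of the members with higher levels and 51.6% and 61.9% of those with lower levels. The share of 51.6% is near that of all IDs. In 42 of the 181 members the shift was at least 1, a doubling, in every line. These differences between lines rest on 2 libraries per line and cannot be tested. The members with higher levels held 0.417, 0.653, 0.535 and 0.577% of all gene counts in the earlier libraries and 1.41, 1.30, 1.44 and 1.10% in the later ones. The members with lower levels held 1.25, 1.26, 1.08 and 1.10% earlier and 0.360, 0.533, 0.411 and 0.623% later.

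**Figure D3:**
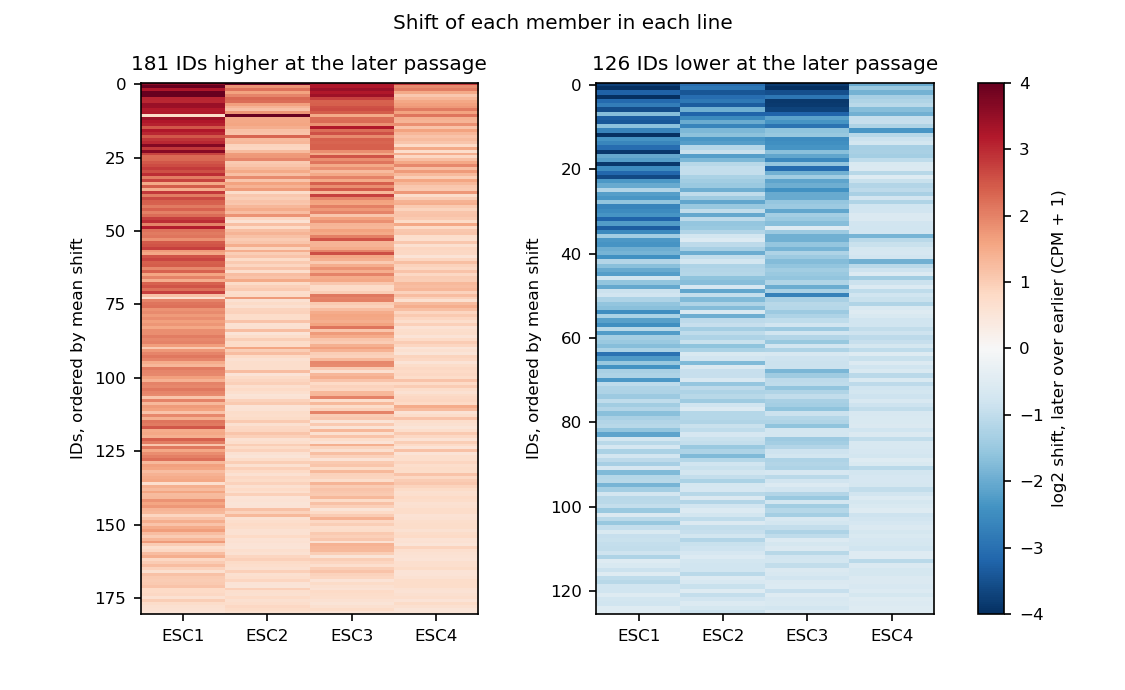
Log2 shift (later over earlier, CPM + 1) of the 181 members with higher and the 126 with lower levels at the later passage, 1 row per ID ordered by mean shift and 1 column per line. Colours are deepest in DPZcjESC1, where the medians were 1.90 and -1.50, and palest in DPZcjESC4, where they were 0.82 and -0.77.

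The lines were sampled at different passage numbers. DPZcjESC2 at passage 37 (its later library) and DPZcjESC3 at passage 37 (its earlier library) have the same passage number, but 176 of the 181 members with higher levels were higher in DPZcjESC2, by a median of 1.26 on the log2 scale. Of the 126 members with lower levels, 122 were lower in DPZcjESC2. Over all IDs within the level limits, 53.9% were higher and 46.1% lower in DPZcjESC2. Passage 46 of DPZcjESC1, an earlier library, has a higher passage number than the later libraries of the other 3 lines. It was below all 3 of these in 180 of the 181 members with higher levels (48.6% of all IDs) and above all 3 in 114 of the 126 with lower levels (28.1% of all IDs). All these libraries entered the choice of members, which largely fixes these counts, and they are a description.

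Levels of the 4 earlier and the 4 later libraries did not overlap in 154 of the 181 members with higher levels, where 7.11% of all IDs within the level limits had all later libraries above all earlier ones. For the 126 members with lower levels this number was 92, with 3.67% of all IDs below. Since these are the libraries of the rule, nothing is read from these counts. The 27 and 34 members with overlap shifted within each line but also differed between lines. An example, chosen after its values were seen, is ENSCJAG00000012665, which carries no symbol. It was at 19.9, 5.19, 157 and 16.4 CPM earlier and 34.5, 135, 453 and 76.4 CPM later, and its shift ranged from 0.77 in DPZcjESC1 to 4.46 in DPZcjESC2.

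**Figure D4:**
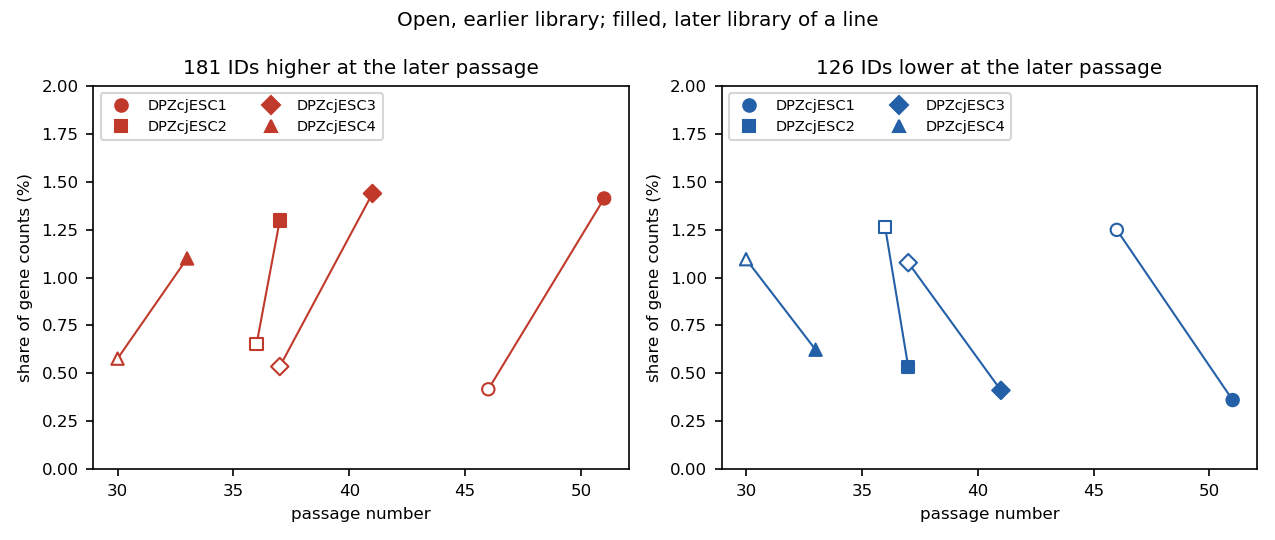
Share of all gene counts (%) that fell on the 181 members with higher (left) and the 126 with lower levels (right) at the later passage, against passage number; each line joins the earlier (open) and later (filled) library of a cell line. The open points lie at 0.417 to 0.653% and the filled at 1.10 to 1.44% on the left, an order that the choice of members largely fixes.

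The shift in a line left out plays no part in a choice made on the other 3 lines, apart from the limits of level. The rule was therefore applied to 3 lines at a time, with the limits of level kept, and the IDs so chosen were read in the other line. Of the IDs with higher levels in 3 lines, 181 of 196 (92.3%) shifted by at least 0.5 in the same direction when DPZcjESC1 was left out, 181 of 273 (66.3%) for DPZcjESC2, 181 of 209 (86.6%) for DPZcjESC3 and 181 of 293 (61.8%) for DPZcjESC4. Among all IDs within the limits the shares were 26.8, 6.37, 13.4 and 4.62%. For lower levels the shares were 126 of 170 (74.1%), 126 of 159 (79.2%), 126 of 194 (64.9%) and 126 of 219 (57.5%), beside 13.1, 11, 8.37 and 5.41% of all IDs. Thus in each line and direction the share was above that of all IDs. The IDs that shifted in the line left out were each time the 181 or 126 members themselves. The shares therefore describe the members and lend them no separate support. The median shift in the line left out was between 0.64 and 1.81 for higher levels and between -1.16 and -0.57 for lower levels. These are shares of IDs within single pairs of libraries, and the IDs are not independent replicates of a passage.

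**Figure D5:**
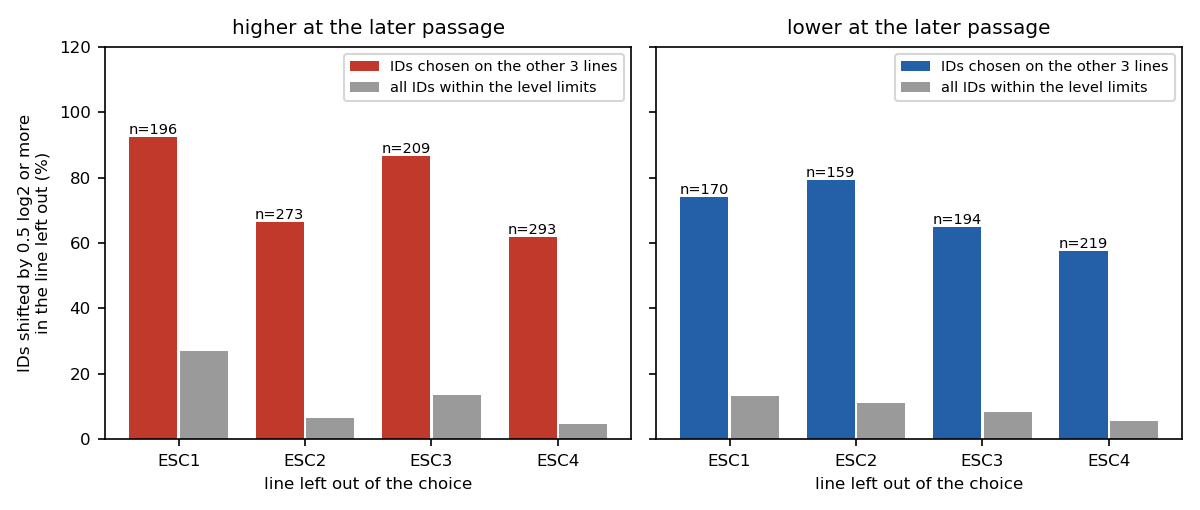
Percentage of IDs that shifted by at least 0.5 (log2) in the line left out, for IDs chosen on the other 3 lines (coloured bars, n above each bar) and for all 10667 IDs within the level limits (grey). The coloured bars reach 57.5 to 92.3% and the grey ones 4.62 to 26.8%.

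IDs lay close to the limit of the shift on both sides. For higher levels, the members closest to it were SRPX2, ENSCJAG00000033255 and CHN1, with smallest shifts of 0.502, 0.503 and 0.504, and just outside were DRC1, of the dynein regulatory complex of cilia, with 0.4999, BEX5 with 0.495 and CEP135 with 0.492. For lower levels, ENSCJAG00000016972, PLIN2 and ZHX2 were inside with 0.5004, 0.502 and 0.504, and AMN1, SLC39A8 and ANKMY2 were outside with 0.498, 0.495 and 0.493. Between 0.4 and 0.5 lay 85 IDs with higher and 51 with lower levels.

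Differences between the lines, averaged over both passages, were tested. Their size entered the choice of members only through the limits of level, which leave out IDs that are low in a line. Counts of the 8 libraries were fitted with edgeR's quasi-likelihood model with line and passage order as terms, over 15781 IDs that had 10 or more counts in 2 or more libraries, and an ID was called at a Benjamini-Hochberg adjusted p under 0.05 and at least a 2-fold difference. The 2 libraries of a line come from 1 embryo. The p-values set differences between lines against how far the shift with passage differs from line to line. The choice of members used these shifts. The p-values and calls of members, here and for the stage of the embryo, are therefore a description. Of all IDs tested, 45 (0.285%) were called between the 4 lines, and of those within the level limits 14 (0.131%). Of the members, 0 of 181 and 0 of 126 were called by edgeR. At an unadjusted p under 0.05 there were 29 (16.0%) and 47 (37.3%), beside 12.3% of all IDs tested. DESeq2 called 11 (6.08%) and 28 (22.2%), beside 4.17% of all IDs tested. The call thus depended on the tool. Without the term for passage order, 1 of 181 and 1 of 126 had an unadjusted p under 0.05 (edgeR), beside 1421 of 15781 IDs tested. The higher shares among members depended on this term as well. The median log2 range between the highest and the lowest line was 0.66 in members with higher levels and 0.88 in members with lower levels, beside 0.43 in all IDs within the level limits. PRDM14 and TRPC4 differed least among the 12 named members with higher levels, with ranges of 0.35 (adjusted p = 0.839, edgeR) and 0.17 (adjusted p = 0.968). GABRP had the widest range of the 12 named members with lower levels, of 2.91 (adjusted p = 0.391).

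Between the morula-derived lines and the blastocyst-derived line, edgeR called 26 IDs (0.165%), of which 19 (0.12%) were lower in the morula-derived lines. CER1 was the only member among them. DESeq2 called 7 members, beside 1.11% of all IDs tested. Scaled by TMM, its mean was 12.8, 18.4 and 20.3 CPM in the 3 morula-derived lines and 83.6 CPM in DPZcjESC4, with SDs of 16.3, 24.5, 24.2 and 90.3 CPM over 2 passages that hold the shift with passage as well. The log2 difference, morula-derived minus blastocyst-derived, was -2.83 with a standard error of 0.33 (adjusted p = 0.0450, edgeR). The adjusted p for differences between the 4 lines was 0.0863. CER1 was no longer called between the morula-derived lines and DPZcjESC4 without the term for passage order, or when 1 library of DPZcjESC2, DPZcjESC3 or DPZcjESC4 was left out. The only line from a blastocyst is DPZcjESC4, so that the stage of the embryo and the line cannot be told apart.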

How the data were processed

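RNA of 8 libraries, 2 passages of each of DPZcjESC1-4, had been sequenced by the authors as single reads of unstranded TruSeq libraries. They aligned the reads to the Ensembl marmoset genome (assembly 3.2.1) with STAR 2.3.0e, kept unique hits with SAMtools 0.1.18 and counted reads per gene with HTSeq 0.6.1p1. The deposited values are raw counts. Rows that name no gene were left out, of which the reads outside genes were 29.4 to 32.9% of unique hits. Genes that have near-identical copies may be undercounted, and overlapping genes cannot be told apart.

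CPM, shifts and members were computed in Python 3.11.15 (numpy 2.4.6, pandas 2.3.3), and figures with matplotlib 3.10.9. edgeR 4.0.16 in R 4.3.3 (TMM) tested lines, and DESeq2 1.42.0 was an alternative. The analysis was checked on simulated counts. Alternatives were other scalings, pseudocounts, limits, filters and models, and leaving out each line or library. A pair of lines left out together were added after seeing the data.

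Symbols were available for 12816 of 32338 IDs. The members, the gene lists and the tests were chosen with earlier results of these data known. Named by rule were the 12 members per direction with the largest smallest shift over the 4 lines, other genes through the lists. Line and passage come from the labels. A line's passages share 1 embryo.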

Additional observations from a re-analysis of the deposited data

Results flagged for a closer look

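In groups of 4 libraries, 3 of 52 tests for a library that stands apart from the other 3 (Dixon's criterion, applied to the named members) were positive, where 2.6 would be expected by chance. CER1 stood apart in DPZcjESC4 at both passages. Among the earlier libraries it was at 20.0 CPM at passage 30 of DPZcjESC4, with 3.14 CPM as the next value. Among the later libraries it was at 149 CPM at passage 33, with 38.5 CPM as the next value. TRPC4 was at 104 CPM in the later library of DPZcjESC1, while the other later libraries were between 65.5 and 68.5 CPM.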

How the results depend on the processing

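The number of members, 307, stayed within 1.5 times for other scalings (308 with TMM, 165 of them higher and 143 lower, and 314 with DESeq2 size factors), other pseudocounts, and shift limits of 0.4 and 0.6. It was 153 at a level limit of 20 CPM. With 1 line left out, it was between 369 and 521. Without DPZcjESC1 and DPZcjESC3 it was 603, and without DPZcjESC2 and DPZcjESC4 1262, both added after seeing the data. Fewer lines to agree allow more members. Any shift in the same direction was shown in the line left out by 95.4% of choices with higher levels (54.0% of all IDs). For lower levels this share was 91.1% (46.0% of all IDs). A shift of 0.5 was shown by 74.6% (12.8% of all IDs) and 67.9% (9.48% of all IDs). These shares pool the lines left out and count the same members once for each, so that they lend the members no separate support.

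Calls depended on the tool and on single libraries. The 45 IDs called between the 4 lines became 658 with DESeq2, 147 without a filter on low counts and 26 without the term for order, and the 26 called for the stage of the embryo became 175 and 87 with DESeq2 and without a filter. The 100 IDs called between later and earlier passages became 547 and 366. Called members changed from 0 to 39 (DESeq2) and 4 (no filter) between lines, and from 1 to 7 (DESeq2) and 0 (no term for order) for the stage. With each library left out in turn, these counts lay between 10 and 854 for lines, 0 and 152 for the stage, 0 and 105 for passages, 0 and 43 for members between lines, and 0 and 9 for members and the stage. Calls between lines were 128 without passage 46 and 854 without passage 51 of DPZcjESC1, and 10 to 14 without any one library of the other lines. Calls between passages were 0 without either library of DPZcjESC2 or DPZcjESC3, and 42 and 35 without passage 30 or 33 of DPZcjESC4. A line with 1 library left is assumed to vary like the others. The causes were not tested. Of the 24 members named by rule, 18 kept a mean shift within its spread between lines under each alternative, and with a pseudocount of 5 CER1, ZBBX, TFAP2A, ATP6V0A4, ENSCJAG00000019348 and ENSCJAG00000007740 moved by more. Of their differences between lines, 326 values under the alternatives stayed on their side of the threshold and 10 passed it (CER1, RASGRF2, TFAP2A, EDNRB, TBX3, ENSCJAG00000007740 and ENSCJAG00000019138).

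Later and earlier libraries were paired by line, with the line as a block in the fit, and without this block 116 IDs were called between passages in place of 100. The labels give no replicate numbers that would pair libraries of different lines. The gene counts limit detection to about 0.233 to 0.283 CPM.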

Other observations

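Further members that none of the lists held were picked singly, after their values were seen, and stand for no group. Of those with higher levels at the later passage, PYY, a gut hormone gene, was at 61.1, 77.5, 179.7 and 103 CPM in the earlier and 291, 274, 389 and 229 CPM in the later libraries of DPZcjESC1, 2, 3 and 4. The groups were separate, although DPZcjESC3 was high at both passages. The serotonin receptor gene HTR3A was at 14.4, 35.9, 20.0 and 16.8 CPM earlier and 49.3, 61.0, 61.5 and 35.6 CPM later, and CHGB, of secretory granules, at 11.7, 24.9, 25.9 and 15.6 CPM and 36.2, 42.6, 42.7 and 32.7 CPM. CNIH2, an auxiliary subunit of glutamate receptors, was at 6.83, 21.5, 7.18 and 12.3 CPM earlier and 54.6, 39.8, 41.9 and 37.3 CPM later. The groups were separate in CHGB and CNIH2 and overlapped in HTR3A, where the later level of DPZcjESC4 was just below the earlier level of DPZcjESC2. The marker list of neuroectoderm held no member.

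Of the members with lower levels, FBN2, a fibrillin gene, was at 552, 339, 377 and 660.0 CPM earlier and 118, 115, 116 and 391 CPM later, with DPZcjESC4 the highest at both passages, so that the groups overlapped. NPNT, a matrix gene, shifted by -2.75, -3.34, -3.82 and -1.08. The phosphate transporter gene SLC34A2 was at 222, 609.6, 441 and 158 CPM earlier and 35.4, 132, 79.2 and 95.7 CPM later, and the groups were separate. F3, the tissue factor of coagulation, was at 83.0, 20.7, 29.4 and 25.8 CPM earlier and 4.80, 9.06, 9.10 and 16.4 CPM later.

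Some members follow each other in the order of protein-coding genes within the level limits. Genes left out of this order may lie between them. Of 7984 genes within the level limits that could be placed by symbol in the order of the RefSeq annotation (assembly calJac240_pri, not the one used for counting), 224 were members. In 6 neighbouring pairs both were higher later (ZBTB44 and ADAMTS15, NR1I2 and CFAP91, PYY and NAGS, EXOC7 and ZACN, LRRC9 and PCNX4, A2ML1 and PHC1), and in 2 pairs both were lower (SBF1 and LMF2, EFNA3 and EFNA1). In 2 further pairs the members had opposite directions, of 7960 neighbouring pairs in all. Of the placed members, 132 were higher and 92 lower later. No background share of pairs was computed, and nothing is read from these counts. The kit used does not mark strand, so that reads in an overlap of genes cannot be assigned. Whether the genes of these pairs overlap was not computed.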
